A study of Mus musculus with 11 samples.

Results

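The genes described here control calcium in the sarcoplasmic reticulum, the internal calcium store of the heart muscle cell. They were chosen by name: Ryr2, Trdn, Jph2, Casq2, Hrc, Atp2a2, Pln, Sln, Slc8a1 and Camk2d. Of these 10 genes, 9 were analysed, out of 15274 genes in the deposited table, and all 9 passed the filter on low values. Sln, which encodes the pump inhibitor sarcolipin, was not analysed here.

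RNA sequencing was done on pieces of heart from mice of 8 weeks, with day 7 in the library titles. The groups were C3H/HeJ (C3H) injured (2 libraries), C3H uninjured (3), C57BL/6J (B6) injured (3) and B6 uninjured (3). C3H is an inbred strain in which dystrophic calcification of injured heart muscle is known, and B6 is the common laboratory strain. By the mouse numbers in the labels, the 11 libraries came from 6 mice. Of these mice, 5 gave an injured and an uninjured region of the same heart. Their uninjured regions thus belong to hearts that were also injured. The labels do not name the way of injury, and no group carried a transgene or a drug by the labels.

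In each beat, calcium entering through the L-type channel opens the ryanodine receptor (Ryr2), which releases stored calcium into the cytosol and starts contraction. The pump SERCA (Atp2a2) then takes calcium back into the store under the brake of phospholamban (Pln), and the sodium-calcium exchanger (Slc8a1) expels the rest across the cell surface. Calsequestrin (Casq2) and the histidine-rich calcium binding protein (Hrc) hold calcium inside the store, triadin (Trdn) ties calsequestrin to the receptor, and junctophilin (Jph2) holds the store against the surface membrane. The kinase CaMKII delta (Camk2d) phosphorylates the receptor and phospholamban. Most of these proteins are made in the heart mainly by its muscle cells, and loss of pump activity is a textbook feature of the failing heart.

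The tables held 9699985 to 22138459 reads per library. Of 20 cardiomyocyte markers, 19 were lower in injured than in uninjured C3H regions at an adjusted p under 0.05 (limma), with a list median of -2.01 on the log2 scale, and the sum of the list was 685084 to 779000 normalised counts in C3H injured, 2186404 to 2864559 in C3H uninjured, 1232965 to 1742159 in B6 injured and 1913750 to 2689400 in B6 uninjured libraries. Myh6 (the alpha myosin heavy chain), a defining marker of heart muscle cells, had at least 149911 normalised counts in every library, so that heart muscle was present in all. In C3H, 9 of 10 macrophage and monocyte markers and 7 of 10 fibroblast markers were higher in injured regions, and 4 of 10 endothelial markers were lower. The macrophage list summed to 76648 to 134238 normalised counts in C3H injured, 12931 to 22636 in C3H uninjured, 37252 to 51871 in B6 injured and 23462 to 32764 in B6 uninjured libraries. The fibroblast list summed to 583568 to 832650 in C3H injured, 49498 to 279898 in C3H uninjured, 484289 to 488531 in B6 injured and 207561 to 425685 in B6 uninjured libraries. Of 8 atrial markers 1 was higher and 2 were lower in injured C3H regions, and of 9 smooth muscle and mural markers 2 were higher and 1 was lower. For these C3H counts the background was 15.3% of all genes tested called higher and 15.4% called lower. No skeletal muscle marker was called, and summed levels of 8 skeletal muscle markers stayed between 117 and 567 normalised counts over all libraries. Strain cannot be told apart from sex: Xist had 1840 to 8478 normalised counts in the C3H libraries and 3.14 to 12.2 in the B6 libraries, and Ddx3y had 0.888 to 3.46 in C3H and 1429 to 2221 in B6.

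Upstream sequence was looked up for the genes in RefSeq (build GRCm38.p6) as the 250 bases before the annotated start, and 7 of the 9 genes were matched, while Trdn and Atp2a2 are named only. Motifs of cardiac regulators were searched on both strands: the MEF2 site, the CArG box, GATA (GATAA) and MCAT (CATTCC). Among 27025 promoter windows of the same length, 3.01% held a MEF2 site, 1.40% a CArG box, 23.0% GATAA and 12.6% CATTCC. The 4 genes with any match are printed, and capitals mark the matches. In the injury effect described next, Hrc had the largest decrease in C3H and Slc8a1 was among the smallest.
Hrc, chr7:45335019-45335268, plus strand: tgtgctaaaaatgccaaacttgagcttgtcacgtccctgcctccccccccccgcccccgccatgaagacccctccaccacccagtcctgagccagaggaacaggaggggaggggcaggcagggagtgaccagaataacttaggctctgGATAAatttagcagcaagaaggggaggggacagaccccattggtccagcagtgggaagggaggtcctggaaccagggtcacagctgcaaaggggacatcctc
Pln, chr10:53337436-53337685, plus strand: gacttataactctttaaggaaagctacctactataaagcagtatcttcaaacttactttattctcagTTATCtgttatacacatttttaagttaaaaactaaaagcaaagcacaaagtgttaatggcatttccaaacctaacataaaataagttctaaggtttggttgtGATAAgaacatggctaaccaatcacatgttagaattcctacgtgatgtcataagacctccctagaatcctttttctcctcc
Casq2, chr3:102086165-102086414, plus strand: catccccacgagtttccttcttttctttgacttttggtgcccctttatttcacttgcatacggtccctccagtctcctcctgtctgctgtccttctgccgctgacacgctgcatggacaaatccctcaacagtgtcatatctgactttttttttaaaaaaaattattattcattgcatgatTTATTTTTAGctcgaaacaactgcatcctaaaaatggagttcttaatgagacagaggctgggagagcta
Slc8a1, chr17:81738388-81738637, minus strand: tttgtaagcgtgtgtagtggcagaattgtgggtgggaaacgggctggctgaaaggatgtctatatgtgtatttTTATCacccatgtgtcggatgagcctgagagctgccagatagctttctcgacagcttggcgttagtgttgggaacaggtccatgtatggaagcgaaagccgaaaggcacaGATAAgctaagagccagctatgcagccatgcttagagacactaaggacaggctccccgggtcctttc
The Hrc window held GATAA 97 bases before the start. The Pln window held it 178 and 76 bases before the start and the Slc8a1 window 172 and 62 bases before it. Casq2 was the only gene of the 7 with a MEF2 site, 59 bases before its start. The windows of Jph2, Ryr2 and Camk2d held none of these letters. The matches are a description of the letters and not of binding, and a link between them and the injury effect was not tested.

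In C3H hearts, 5 of the 9 genes were lower in injured than in uninjured regions, and none was higher. These were Hrc, Trdn, Jph2, Pln and Casq2, which stood at 0.250 to 0.398 of the uninjured level. The background of the same call was 15.4% of the 14751 genes tested. The median log2 difference was -1.33 over the 9 genes and 0.01 over all genes tested. Every library of the injured group was below every library of the uninjured group for 8 of the 9 genes (29.7% of all genes tested), Ryr2 being the exception. Values are normalised counts, which are reads divided by the size factor of the library, and log2 differences are injured minus uninjured on the scale of log2(normalised count + 1) with limma's SE and p adjusted over all genes. In bulk tissue, fewer cardiomyocytes and less RNA of a gene per cardiomyocyte cannot be told apart.

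**Figure D1:**
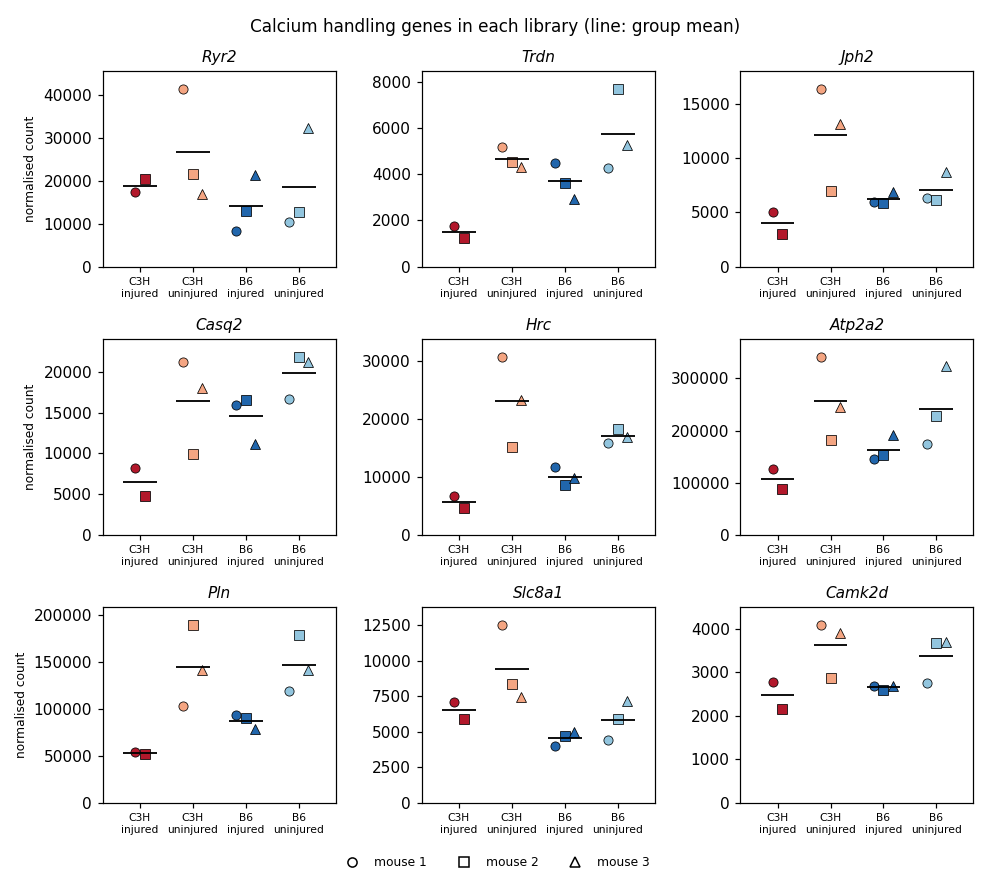
Normalised counts (vertical axis, from 0) of the 9 genes in each library, by group; marker shapes give the mouse and lines the group mean. For Hrc the C3H injured libraries (4626 and 6624) lie far below the C3H uninjured ones (15107 to 30829), while for Ryr2 the groups overlap.

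Transcripts of both proteins of the store lumen were lower in injured C3H regions. Hrc had 6624 and 4626 normalised counts in C3H injured regions, against 30829, 15107 and 23376 in C3H uninjured regions. Its log2 difference was -2.00 (SE 0.31, adjusted p = 0.000844), the largest decrease of the set. In B6 it had 11648, 8669 and 9783 in injured regions, against 15922, 18204 and 16920 in uninjured regions, again without overlap, a difference of -0.77 (SE 0.28) that did not pass (adjusted p = 0.364). Casq2, the high-capacity calcium buffer of the store, had 8167 and 4734 normalised counts in C3H injured regions, against 21200, 9929 and 18082 in C3H uninjured regions. The difference was -1.33 (SE 0.36, adjusted p = 0.0156), and the lowest uninjured library (mouse 2) lay close to the higher injured one. Casq2 no longer passed without C3H injured library 2 (adjusted p = 0.186) or without C3H uninjured library 3 (adjusted p = 0.0536), while that of Hrc held without each library in turn. B6 injured regions had 15928, 16580 and 11191 counts of Casq2, against 16627, 21895 and 21204 in B6 uninjured regions, a difference of -0.46 (SE 0.32, adjusted p = 0.518).

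At the release site, Trdn and Jph2 were lower in injured C3H regions and Ryr2 was not distinguishable. Trdn had 1762 and 1232 normalised counts in C3H injured regions, against 5170, 4542 and 4320 in C3H uninjured regions. The uninjured libraries lay close together and well above both injured ones, with a difference of -1.66 (SE 0.28, adjusted p = 0.00151) that held without each library in turn. In B6, Trdn had 4507, 3644 and 2929 in injured regions, against 4275, 7719 and 5291 in uninjured regions, where the groups overlapped (-0.62, SE 0.25, adjusted p = 0.365). Jph2 had 5000 and 2968 normalised counts in C3H injured regions, against 16456, 6953 and 13190 in C3H uninjured regions. Its difference was -1.57 (SE 0.35, adjusted p = 0.00613), and it did not pass without C3H injured library 2 (adjusted p = 0.0932). The B6 values of Jph2 were almost level, with 5995, 5880 and 6863 in injured regions and 6367, 6128 and 8767 in uninjured regions (-0.17, SE 0.32, adjusted p = 0.831).

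Ryr2 varied more within groups than between them. It had 17408 and 20302 normalised counts in C3H injured regions, against 41426, 21457 and 16956 in C3H uninjured regions, and C3H uninjured library 3 lay below both injured libraries. The C3H difference was -0.39 with an SE of 0.53 (adjusted p = 0.60). In B6, Ryr2 had 8260, 13003 and 21342 in injured regions, against 10334, 12802 and 32226 in uninjured regions, with library 3 the highest of each group (-0.30, SE 0.47, adjusted p = 0.791). In each strain this SE was the largest of the 9 genes, so that a change of Ryr2 was harder to detect than one of the others.

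Calcium uptake was represented by the pump and its brake. Atp2a2 had 126323 and 88018 normalised counts in C3H injured regions, against 342076, 181053 and 246120 in C3H uninjured regions, with no overlap. The difference of -1.23 (SE 0.45) missed the threshold (adjusted p = 0.0574), and it passed without C3H uninjured library 2 (-1.46, adjusted p = 0.0388), with edgeR (adjusted p = 0.0260) and with DESeq2 (adjusted p = 0.00147). Over the 22 alternatives not scaled to cardiomyocyte markers, Atp2a2 passed in only 6, and its difference ran from -1.49 to -0.36. B6 injured regions had 146098, 152058 and 192271 counts of Atp2a2, against 174088, 227067 and 323223 in B6 uninjured regions (-0.53, SE 0.41, adjusted p = 0.557). Pln had 53920 and 51786 normalised counts in C3H injured regions, against 103518, 189816 and 141752 in C3H uninjured regions. The injured pair lay within a narrow range below all uninjured libraries, with a difference of -1.41 (SE 0.37, adjusted p = 0.0143) that did not pass without C3H injured library 1 (adjusted p = 0.0716) or 2 (adjusted p = 0.0999). In B6 the counts of Pln were 92945, 89733 and 78382 in injured regions, against 119143, 178990 and 141436 in uninjured regions, without overlap (-0.74, SE 0.34, adjusted p = 0.372).

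The exchanger and the kinase had smaller differences. Slc8a1 had 7124 and 5891 normalised counts in C3H injured regions, against 12558, 8339 and 7429 in C3H uninjured regions. The groups did not overlap but nearly touched (-0.51, SE 0.28, adjusted p = 0.189). B6 injured regions had 3962, 4704 and 4994 counts of Slc8a1, against 4444, 5886 and 7173 in B6 uninjured regions (-0.34, SE 0.25, adjusted p = 0.544). Camk2d had 2778 and 2162 normalised counts in C3H injured regions, against 4099, 2863 and 3899 in C3H uninjured regions, a difference of -0.55 (SE 0.23, adjusted p = 0.0918) that passed without C3H uninjured library 2 (-0.71, adjusted p = 0.0445). For Camk2d in B6 there were 2686, 2587 and 2696 counts in injured regions, a very tight group, against 2750, 3677 and 3691 in uninjured regions (-0.33, SE 0.21, adjusted p = 0.475).

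Since injured and uninjured regions of a mouse share an animal, the effect was also fitted with the animal as a block. With a fixed block, 6 of the 9 genes passed in C3H (17.2% of all genes were lower), Slc8a1 being added (-0.66, adjusted p = 0.0427). A fixed block takes the C3H effect only from the 2 mice with both regions, so C3H uninjured library 3 did not enter it. The median of the 9 genes was -1.24 with the fixed block and also without that library. With a random block, 7 passed (21.1% of all genes were lower), with Atp2a2 (adjusted p = 0.0171) and Camk2d (adjusted p = 0.0392) added to the 5 and Slc8a1 at an adjusted p of 0.0540. Hrc, Trdn and Jph2 passed with quantile normalisation and with the compared groups alone, where 2645 and 1880 of the 14751 genes tested were called lower. Casq2 had -0.79 (adjusted p = 0.0979) and Pln -0.79 (adjusted p = 0.144) with quantile normalisation, and their adjusted p was 0.0532 and 0.0715 with the compared groups alone. Leaving out a library of a group of 3 in turn, the number of genes that passed was 4 (without C3H uninjured library 3) to 7 (without C3H uninjured library 2). Of all genes tested, 1456 and 1941 were then lower, against 2274 in the main fit. Without C3H injured library 2 fewer passed, among the 9 and among all genes, in a fit that left 1 injured library. The median of the 9 genes was -0.97 in that fit and -1.49 without C3H injured library 1.

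In B6 hearts, all 9 genes had lower group means on the log2 scale in injured regions, but limma called 0 of the 9 (0.0136% of all genes tested were called in either direction). The median difference was -0.46, against 0.01 over all genes tested, and 3 genes (Hrc, Trdn and Pln) had an unadjusted p under 0.05. The number called was also 0 with edgeR and with DESeq2. The injured and uninjured libraries did not overlap for 4 genes, Hrc, Pln, Casq2 and Camk2d, where 7.69% of all genes tested lay wholly below. The cardiomyocyte markers of B6 had a median of -0.71, and limma, edgeR and DESeq2 called 0 of 20, with 8 at an unadjusted p under 0.05 in limma.

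**Figure D2:**
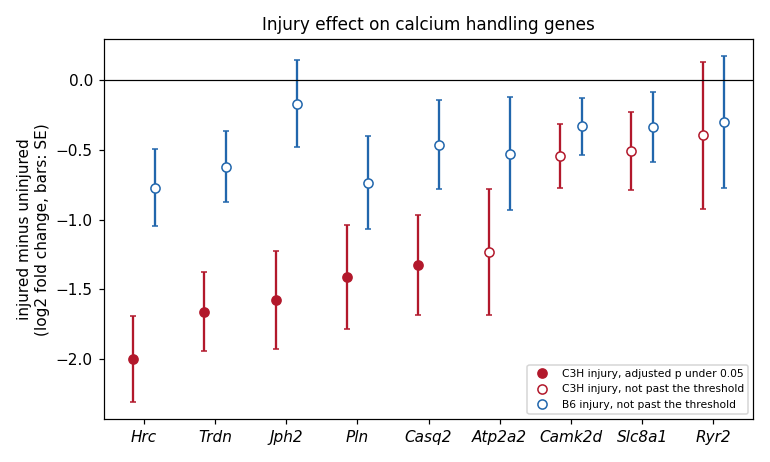
Injured minus uninjured log2 fold change (vertical axis) of the 9 genes in C3H (red) and B6 (blue), ordered by the C3H value, with bars of 1 SE; filled points had an adjusted p under 0.05. Hrc lies lowest in both strains (-2.00 and -0.77), and all B6 points are open.

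The C3H effect was the more negative for each of the 9 genes, with a median difference between the strains of -0.71, but limma called 0 of 9 for the difference itself (1.57% of all genes tested). Jph2 had the largest difference of effects at -1.41 (SE 0.47, adjusted p = 0.191), Hrc had -1.23 (SE 0.41, adjusted p = 0.191) and Trdn -1.04 (SE 0.38, adjusted p = 0.230). These 3 genes had an unadjusted p under 0.05. With the animal as a fixed block Jph2 passed (-1.31, adjusted p = 0.0425), where 0.366% of all genes were called lower. A random block called Jph2 (adjusted p = 0.0407) and Hrc (adjusted p = 0.0486), where 1.33% of all genes were called lower. DESeq2 called Hrc (adjusted p = 0.0454; 1.21% of all genes lower), and edgeR called 0. For Ryr2, Slc8a1 and Camk2d the strains' effects differed by -0.10 (SE 0.71), -0.17 (SE 0.38) and -0.21 (SE 0.31). The more negative effect in C3H was not particular to the 9 genes. Of 20 cardiomyocyte markers 19 had it, with a list median of -1.21. For that difference limma and edgeR called 0 of the 20 markers, and DESeq2 called 7.

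Between the strains, uninjured regions showed 0 calls among the 9 genes with limma, edgeR and DESeq2 (3.1% of all genes by limma), and Slc8a1 and Jph2 had an unadjusted p under 0.05. Slc8a1 averaged 9442 ± 2737 normalised counts in C3H and 5834 ± 1365 in B6 (SD, n = 3 each), the only gene whose groups did not overlap (7.63% of all genes lay wholly above; log2 difference 0.68, SE 0.25, adjusted p = 0.191). Jph2 averaged 12200 ± 4828 in C3H and 7087 ± 1460 in B6 (0.71, SE 0.32, adjusted p = 0.287). In injured regions Trdn was lower in C3H, at 1497 ± 375 (SD, n = 2) in C3H and 3693 ± 790 (SD, n = 3) in B6. That was the single call of the 9 (7.06% of all genes, 3.34% lower; -1.30, SE 0.28, adjusted p = 0.0198), and it did not hold without C3H injured library 2 (adjusted p = 0.313), B6 injured library 1 (adjusted p = 0.0815) or B6 injured library 2 (adjusted p = 0.0627). Casq2 averaged 6450 ± 2427 (SD, n = 2) in C3H and 14566 ± 2941 (SD, n = 3) in B6 and missed the threshold (-1.21, SE 0.36, adjusted p = 0.0656), passing without C3H uninjured library 2 (adjusted p = 0.0356) and with DESeq2 (adjusted p = 0.0131). In injured regions 6 genes lay wholly below in C3H and Slc8a1 wholly above, where 24.2% and 24.9% of all genes did so. The median log2 difference there was -0.69 over the 9 genes. Over 20 cardiomyocyte markers it was -1.02, with 19 below zero. These strain comparisons share libraries with the injury effects, and sex moves with the strain.

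The levels of the genes can be ordered only per length, here as normalised counts per kilobase of all annotated exons of a gene. That length joins the exons of every annotated transcript, so a gene whose expressed transcripts are shorter is placed too low. Which transcripts were expressed was not tested, and the order below holds for this scale only. In C3H uninjured regions Pln (52566 ± 15673) and Atp2a2 (42167 ± 13321) were highest and did not differ beyond their SD (n = 3), followed by Hrc (9004 ± 3065) and Casq2 (5995 ± 2127). Jph2 (2867 ± 1135) and Ryr2 (924 ± 452) came next, and Slc8a1 (502 ± 146) and Trdn (500.1 ± 47.1) had nearly the same value. Camk2d (161 ± 29.5) was lowest. In C3H injured regions Pln (19157 ± 547) and Atp2a2 (17624 ± 4454) remained highest (SD, n = 2), while Ryr2 (655 ± 71.1) was within the spread of Jph2 (936 ± 338) and Trdn (160 ± 40.1) stood below Slc8a1 (346 ± 46.3).

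Ratios between genes of a library do not depend on its scaling. The exchanger to pump ratio, Slc8a1 to Atp2a2, was 0.0564 and 0.0669 in C3H injured regions, against 0.0367, 0.0461 and 0.0302 in C3H uninjured regions. In B6 it was 0.0271, 0.0309 and 0.0260 in injured regions, against 0.0255, 0.0259 and 0.0222 in uninjured regions. All 5 mice with both regions had the higher ratio in the injured one. The mean of the strain effects was 0.46 on the log2 scale, 0.73 in C3H and 0.19 in B6, with an exact permutation p of 0.020 over 200 relabellings within strain (two-sided; 0.040 adjusted over the 2 ratios). Sign flips within the 5 mice gave a difference of 0.38 and an exact p of 0.0625, the smallest they can give. Corrected for exon length as described below, the effect was 0.30 with an exact permutation p of 0.135.

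**Figure D3:**
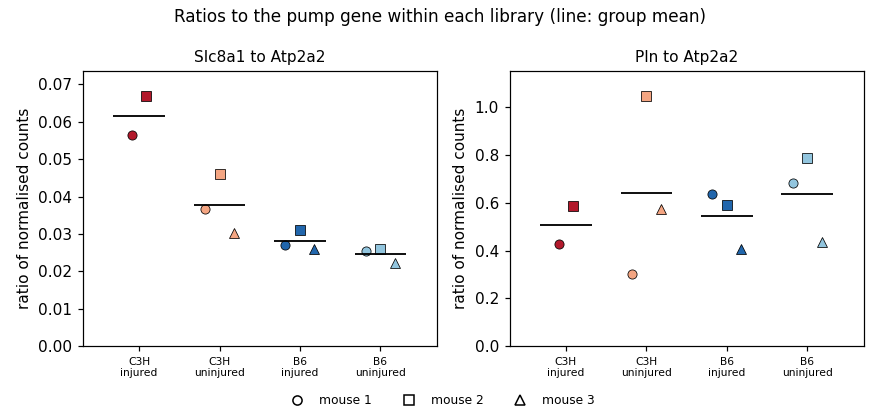
Ratio of normalised counts (vertical axes, from 0) of Slc8a1 to Atp2a2 (left) and of Pln to Atp2a2 (right) in each library, by group; marker shapes give the mouse and lines the group mean. The Slc8a1 ratio is highest in the C3H injured pair (0.0564 and 0.0669), and the Pln ratio spreads most in C3H uninjured regions (0.303 to 1.05).

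The brake to pump ratio, Pln to Atp2a2, was 0.427 and 0.588 in C3H injured regions, against 0.303, 1.05 and 0.576 in C3H uninjured regions. In B6 it was 0.636, 0.590 and 0.408 in injured regions, against 0.684, 0.788 and 0.438 in uninjured regions. The groups overlapped in both strains, and the mean effect was -0.19 (exact permutation p = 0.615), and 0.028 (exact permutation p = 0.967) without C3H uninjured library 2, whose ratio was the highest.

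Set against the 20 cardiomyocyte markers of the same library, the order of the genes stayed by construction, and the sign of the difference turned for 8 of the 9. Scaled to that list, 2 of the 9 genes were higher in injured C3H regions, Slc8a1 by 1.32 (adjusted p = 0.00621) and Camk2d by 1.28 (adjusted p = 0.000997), and none was lower. This scaling raised the median of all genes tested to 1.84, and 82.9% of them were called higher, against a median of 0.50 for the 9 genes. Ryr2 had 1.43 (adjusted p = 0.0605), Atp2a2 0.60 and Casq2 0.50. Pln (0.42), Jph2 (0.25), Trdn (0.17) and Hrc (-0.17) moved least against the markers, with adjusted p from 0.196 to 0.584. In B6 the values relative to the list were -0.066 for Hrc, -0.031 for Pln and 0.085 to 0.54 for the others, with 0 called. Whether cell content or expression per cell accounts for the C3H decreases was not tested.

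Exon length moved with the C3H result. The genes with the longest annotated exons, Ryr2 (28790 bases), Camk2d (22493 bases) and Slc8a1 (18807 bases), were the ones with the smallest C3H differences, while Hrc (2566 bases), Casq2 (2736 bases) and Pln (2759 bases) are short. The other genes did not follow that order: Trdn, with 9352 bases, had a larger decrease (-1.66) than Casq2, Pln, Atp2a2 (6081 bases) or Jph2 (4255 bases). Across all tested genes with a length, the median C3H difference was 0.41 for 1330 genes of at least 10 kilobases and -0.03 for 12881 shorter ones (0.10 and 0.01 in B6). The median deviation of the long genes from the mean of all libraries was 0.37 and 0.46 in C3H injured, 0.26, -0.03 and -0.28 in C3H uninjured, -0.36, -0.03 and 0.26 in B6 injured, and -0.37, -0.36 and 0.25 in B6 uninjured libraries. The Ryr2 level followed these values within groups: in every group its highest library was the one with the highest median of the long genes. With the log2 values of each library corrected for a smooth trend on exon length, an alternative chosen after seeing the data, all 9 genes were lower in injured C3H regions (17.3% of genes). Corrected values were -0.89 for Ryr2 (adjusted p = 0.0161), -1.40 for Atp2a2 (adjusted p = 0.0135), -0.97 for Slc8a1 (adjusted p = 0.00511) and -1.03 for Camk2d (adjusted p = 0.0301), and the 5 others ran from -1.14 (Casq2) to -1.99 (Trdn). In B6 and for the strain difference the corrected fit called 0 of 9.

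**Figure D4:**
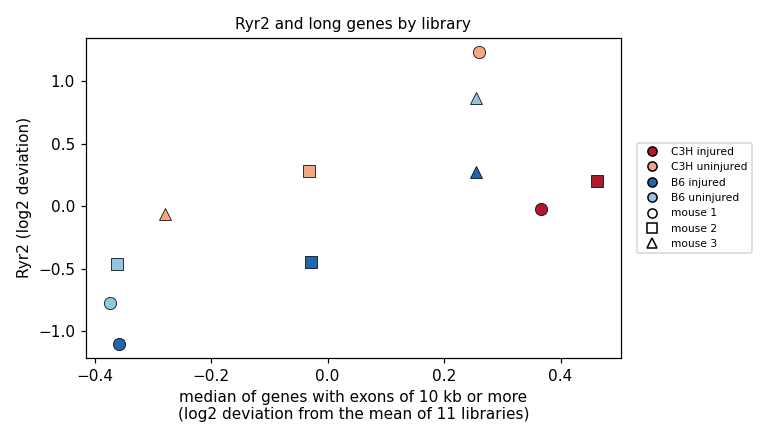
Deviation of Ryr2 from its mean over 11 libraries (vertical axis, log2) against the median deviation of 1330 genes with at least 10 kilobases of exons (horizontal axis, log2), 1 point per library, coloured by group with marker shapes for the mouse. The C3H injured libraries lie farthest right (0.37 and 0.46), and C3H uninjured library 1 is highest for Ryr2.

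Beyond the 9 genes, 10 lists of the same pathway held 78 genes, of which 73 were tested. In C3H, 18 of the 73 were lower (15.4% of all genes) and 5 higher (15.3% of all genes) in injured regions, with a median of -0.33. With a fixed animal block 8 were higher, where 2614 of the 14751 genes tested were called higher. Fewer of the 73, and fewer of all genes, were called in either direction without C3H injured library 2, a fit that left 1 injured library. In B6 limma, edgeR and DESeq2 called 0 of 73, with 6 at an unadjusted p under 0.05 in limma. The list of the junction and tubule, where Jph2 acts, had 5 of 8 lower and none higher. Cav3, the caveolin of muscle membranes, fell by 1.94 (adjusted p = 0.0011), and Tcap, a titin cap protein also counted among the cardiomyocyte markers, fell by 2.61 (adjusted p = 0.00058).

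**Figure D5:**
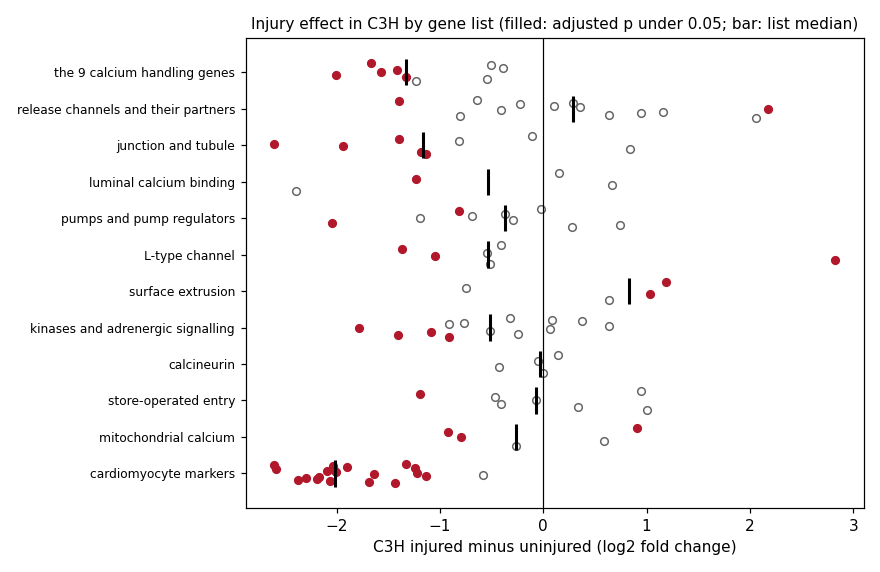
C3H injured minus uninjured log2 fold change (horizontal axis) of the 9 genes, of the tested genes of 10 pathway lists and of 20 cardiomyocyte markers, 1 point per gene; filled points had an adjusted p under 0.05 and bars are list medians. The medians are -1.33 for the 9 genes, -1.16 for the junction and tubule list and -2.01 for the markers.

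Among 13 partners of the release channels 1 was higher and 1 lower in injured C3H regions. Fkbp1b, the small immunophilin bound to the cardiac ryanodine receptor, had 66.6 and 110 normalised counts in C3H injured regions, against 17.8, 22.0 and 15.1 in C3H uninjured regions (2.18, adjusted p = 0.0036). The adjusted p was 0.0613 without C3H injured library 2. S100a1, a calcium sensor that acts on the receptor and the pump, fell by 1.40 (adjusted p = 0.0172), with -0.62 (adjusted p = 0.0227) corrected for exon length and -0.89 (adjusted p = 0.0440) with quantile normalisation. Of 4 luminal genes, Srl (sarcalumenin) fell by 1.23 (adjusted p = 0.0324). Of 9 pumps and pump regulators 2 were lower: Mrln, a pump-inhibiting micropeptide with few reads, by 2.04 (adjusted p = 0.0385, and 0.1024 with a fixed animal block), and Ppp1cb, a phosphatase subunit, by 0.81 (adjusted p = 0.0325). The value of Mrln was -1.21 with a pseudocount of 8 (adjusted p = 0.0564) and -1.44 corrected for exon length (adjusted p = 0.0967), and with the compared groups alone its adjusted p was 0.0863. Quantile normalisation ended the calls of Srl (-0.72, adjusted p = 0.224) and Ppp1cb (-0.37, adjusted p = 0.205), and the compared groups alone that of Srl (adjusted p = 0.0741).

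The other routes of calcium had calls in both directions in C3H. Of 6 L-type channel genes 1 was higher, Cacna1d, with 176 and 649 normalised counts in injured regions, against 70.3, 41.9 and 34.6 in uninjured regions (2.83, adjusted p = 0.0166), and 2 were lower, among them Rrad, which restrains the channel (-1.36, adjusted p = 0.0107). Surface extrusion genes other than Slc8a1 had 2 of 4 higher, the plasma membrane pumps Atp2b4 (1.19, adjusted p = 0.0375) and Atp2b1 (1.03, adjusted p = 0.0179). Of 13 kinase and adrenergic genes 4 were lower, including the beta receptor Adrb1 (-1.79, adjusted p = 0.0063) and Camk2b (-1.40, adjusted p = 0.0429). Mitochondrial calcium genes had 2 of 5 lower, with Letm1 (-0.92, adjusted p = 0.0128), and 1 higher, Slc8b1 (0.90, adjusted p = 0.0463, and 0.0980 with a fixed animal block). Of 4 calcineurin genes limma, edgeR and DESeq2 called 0, and 0 had an unadjusted p under 0.05 in limma, Ppp3cb having the smallest p (-0.43, adjusted p = 0.1707). With edgeR the adjusted p of Atp2b4 was 0.0525. The compared groups alone gave adjusted p of 0.0570 for Atp2b4, 0.0540 for Camk2b and 0.0913 for Slc8b1, and quantile normalisation 0.0612 for Slc8b1. Corrected for exon length, Atp2b4 was at 0.78, Atp2b1 at 0.58 and Rrad at -0.91, each still passing, and Ppp3cb passed (-0.74, adjusted p = 0.0397). Of the 15 named genes that passed, all but Tcap and Cav3 lost the call without C3H injured library 2, and other libraries also decided S100a1, Srl, Mrln, Ppp1cb, Cacna1d, Atp2b4, Atp2b1, Camk2b and Slc8b1.

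The genes whose pattern over the 11 libraries lay nearest were found by the root-mean-square difference of log2 levels after removing each gene's mean. The levels were not scaled to how much a gene varied. A gene that varies little can have small values for that reason alone. Camk2d had the closest neighbours, Ibtk (0.0698) and Ctnna1 (0.0856). Pln was followed by Chchd3 (0.106) and Gbas (0.109), Atp2a2 by Slc22a3 (0.133) and Acsl1 (0.160), and Trdn by Etfdh (0.151) and Hsdl2 (0.163). For Slc8a1 they were 9330102E08Rik (0.138) and Mtrr (0.154), for Ryr2 Ppargc1b (0.155) and Sptb (0.170), and for Casq2 Lace1 (0.167) and Sdpr (0.183). Jph2 had Srl (0.185) and Iba57 (0.199), and Hrc, the gene with the most distant neighbours, had Gpr27 (0.209) and Fndc5 (0.211).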

How the data were processed

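The submitters' processing notes name TopHat2 2.0.11, the mouse build mm9, HTSeq 0.6.1 and DESeq without a version. The deposited signal is, in the authors' normalisation, the reads of a gene divided by 1 size factor per library, and all values (100%, tolerance 1e-06) were whole multiples of 1 step, which gave back the reads. No source used here gives strandedness or annotation. Reads of C3H were aligned to the B6 genome, which could lower counts over variants.

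Values were tested as log2(normalised count + 1) for 14751 genes, those reaching 10 in 2 or more libraries (523 did not), in limma 3.58.1 (R 4.3.3; trended empirical Bayes) with 4 group means, 7 residual degrees of freedom, and Benjamini-Hochberg adjustment over all genes tested, threshold 0.05, two-sided. edgeR 4.0.16 (quasi-likelihood) and DESeq2 1.42.0 on the recovered reads were alternatives. Scripts were tested on simulated data. Log2 fold changes understate those of genes with few reads.

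The genes and all lists were chosen with earlier results of these data known. From each pathway list, up to 2 genes with the largest C3H effect past the threshold were named, or else the gene of smallest p. Also named besides the 9 genes were the most abundant cardiomyocyte marker and 2 nearest neighbours per gene. The labels number the mice, and that number was used to pair the regions. Residuals of the same mouse had correlations of 0.305 and 0.575 for the C3H mice and 0.276, -0.0140 and 0.524 for the B6 mice. Residuals of different mice were not compared. The residuals of the 2 C3H injured libraries mirror each other, so the C3H correlations are not independent. Exon lengths came from a GENCODE annotation of GRCm38 matched by symbol, for 96.3% of genes tested, and 4 of the 78 pathway genes were not analysed here. For 1 further pathway gene named by this rule the result is not reported here.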

Additional observations from a re-analysis of the deposited data

How the results depend on the processing

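The number of the 9 genes lower in injured C3H regions was 5, where 2274 of 14751 genes tested were lower. It was 3 with quantile normalisation (2645 of all genes) and 3 with the compared groups alone (1880). Corrected for exon length (chosen after seeing the data) it was 9 (2453 of 14211 genes). Leaving out a library of a group of 3 in turn, it was 4 without C3H uninjured library 3 (1456 of all genes) to 7 without C3H uninjured library 2 (1941). Fewer passed without C3H injured library 2, which left 1 library in that group. Scaled to the cardiomyocyte list, 2 were called, both higher. For the strain difference of the injury effect 0 became 1 with DESeq2, 1 with a fixed replicate block and 2 with a random one. In injured regions the 1 call between the strains (493 of 14751 genes lower) became 2 with the cardiomyocyte scaling, both higher in C3H, Trdn not among them. That scaling called 5994 of all genes higher. The number was 2, both lower, with DESeq2 (1040 of all genes lower) and with the compared groups alone (740). Leaving out a library of a group of 3 in turn, it was 0 to 2. It was 0 without B6 injured library 1 or 2 (121 and 157 of all genes lower) and 2 without C3H uninjured library 2 (506). Pseudocounts of 0.5 and 8 changed none of the numbers called among the 9 genes, and the cause of the changes was not tested.

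The Slc8a1 to Atp2a2 ratio effect was 0.38 (p = 0.0625, exact sign flips) with the animal pairing and 0.30 (exact permutation p = 0.135) corrected for exon length. The Pln to Atp2a2 effect reversed to 0.051 with that correction and ran from -0.42 to 0.028 leaving out a library in turn.

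Directions that reversed were as follows. Quantile normalisation gave Ryr2 0.068, Atp2a2 0.11 and Jph2 0.087 in B6, Ryr2 0.095 in C3H, and 0.027 for Ryr2 and 0.070 for Slc8a1 in the strain difference. It moved the median of all genes in C3H down from 0.01 to -0.11, and that of the 9 genes up from -1.33 to -0.79. Between strains in uninjured regions, edgeR gave Pln 0.030, and the length correction Pln 0.026 and Camk2d -0.087. In injured regions that correction gave Ryr2 -0.13 and Slc8a1 -0.017.

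The cardiomyocyte scaling reversed the most, by its shift of all genes. In B6 it gave Ryr2 0.41, Atp2a2 0.18, Casq2 0.24, Slc8a1 0.37, Jph2 0.54, Trdn 0.085 and Camk2d 0.37. In C3H it gave Ryr2 1.43, Atp2a2 0.60, Pln 0.42, Casq2 0.50, Slc8a1 1.32, Jph2 0.25, Trdn 0.17 and Camk2d 1.28. The strain difference was then 1.03 for Ryr2, 0.42 for Atp2a2, 0.45 for Pln, 0.26 for Casq2, 0.96 for Slc8a1, 0.082 for Trdn and 0.91 for Camk2d. C3H against B6 was -0.13 for Atp2a2 and -0.12 for Camk2d in uninjured regions, and in injured regions 0.29 for Atp2a2, 0.19 for Pln, 0.22 for Jph2, 0.063 for Hrc and 0.79 for Camk2d. Pathway genes in C3H had 0.43 for S100a1, 0.60 for Srl, 1.01 for Ppp1cb, 0.47 for Rrad, 0.041 for Adrb1, 0.42 for Camk2b, 1.40 for Ppp3cb and 0.91 for Letm1.

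Leaving out a library in turn, the B6 effect of Ryr2 ran from -0.65 to 0.20. The strain difference ran from -0.59 to 0.28 for Ryr2 and from -0.33 to 0.056 for Slc8a1. C3H against B6 in uninjured regions ran from -0.15 to 0.32 for Atp2a2, from -0.25 to 0.18 for Pln and from -0.042 to 0.26 for Camk2d, and in injured regions from -0.30 to 0.065 for Camk2d. None of these passed the threshold.

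Without the cardiomyocyte scaling, the C3H effects of 8 of the 9 genes were below zero in all 13 alternatives that can move them, and that of Ryr2 in 12, with quantile normalisation the exception. Hrc and Trdn passed in all 22 alternatives, of which 9 can change only the SE or the adjustment. C3H injured regions had 2 libraries, and leaving out either left 1, assumed to vary like the other groups. How much of the spread came from counting, library preparation or animals was not tested.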
